A study of Mus musculus with 24 samples.

Results

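Open chromatin lying between genes, at a moderate distance from the nearest transcription start site (TSS), was followed in mouse embryonic stem cells (mESCs) over 6 times after doxycycline. The intervals described are the peaks of the deposited count table that lie on chromosomes 1 to 19, are annotated as intergenic, sit more than 1000 bp and at most 50000 bp from the nearest TSS, and are narrower than 3000 bp. Of 145143 peaks, 38206 met this rule (26.3%). They came from 46542 autosomal intergenic peaks, of which 264 within the distance limits were wider and 8072 lay beyond 50 kb. The assay was ATAC-seq, in which the Tn5 transposase cuts and tags accessible DNA, so that a count is a measure of how open an interval is in the bulk of the cells.

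4 mESC lines were sampled at 0, 30, 60, 90, 120 and 150 min of doxycycline, with 1 library per line and time. KO Firre cells lacked the endogenous Firre gene and carried a doxycycline-inducible Firre transgene. KO control cells lacked Firre and had no transgene. WT Firre cells kept the endogenous gene and carried the inducible transgene, and WT control cells were wild type. All lines, controls included, received doxycycline and grew without feeder cells on gelatin with LIF, the MEK inhibitor PD0325901 and the GSK3 inhibitor CHIR99021. Firre is a nuclear long noncoding RNA transcribed from the X chromosome. The WT Firre library of 60 min was not analysed here, which left 23 libraries: 6 of KO Firre, 6 of KO control, 5 of WT Firre and 6 of WT control. The 5 or 6 times of a line serve as its repeats below. No label describes separate cultures or clones, so the spread behind each p-value is that among the libraries of a line, and the genotype cannot be told apart from the history of a line.

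Distal accessible elements such as enhancers, insulators and unannotated start sites are bound by transcription factors that displace nucleosomes, and an enhancer can act on a promoter some way off along the chromosome. In mESCs many such elements are bound by OCT4, SOX2, NANOG, ESRRB and KLF factors, whose network sustains naive pluripotency with LIF-STAT3 and Wnt signalling as inputs. The gene named for each interval is the nearest one in the deposited annotation, which need not be the gene that the interval serves.

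Some intervals annotated as intergenic hold a transcription start site of another gene catalogue. RefSeq start windows (250 bases before to 50 after a start, GRCm38.p6, the assembly that mm10 names) lay whole inside 350 of the 38206 intervals (0.916%), against 46.9% of promoter peaks, 2.0% of intron peaks and 0.746% of intergenic peaks beyond 50 kb. In 30 of the 350 the RefSeq gene carried the same symbol as the nearest gene. These 350 intervals had a median level of 5.59 CPM per kb, against 4.50 CPM per kb for the others. Since no genome of the build was used, the RefSeq windows are the sequences shown, chosen for the intervals whose levels are reported below. The first belongs to Gm12059, on the plus strand at chr11:23064814-23065113, inside an interval called in 2 comparisons between lines. The second, Gm41603 on the minus strand at chr17:55932148-55932447, lies in the interval near Rpl21-ps6 that was higher in WT Firre cells. Its capitals mark a tandem repeat of 13 copies of a unit of 10 bases, 130 bases in all. The third, Gm33628 on the minus strand at chr12:108758142-108758441, lies in the interval with 33.7 CPM per kb, shown for its high level.
Gm12059: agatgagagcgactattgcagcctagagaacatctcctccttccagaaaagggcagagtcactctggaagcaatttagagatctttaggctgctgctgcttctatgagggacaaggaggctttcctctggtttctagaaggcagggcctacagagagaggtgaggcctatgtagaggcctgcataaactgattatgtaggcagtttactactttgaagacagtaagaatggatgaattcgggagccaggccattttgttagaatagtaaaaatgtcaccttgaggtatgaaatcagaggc
Gm41603: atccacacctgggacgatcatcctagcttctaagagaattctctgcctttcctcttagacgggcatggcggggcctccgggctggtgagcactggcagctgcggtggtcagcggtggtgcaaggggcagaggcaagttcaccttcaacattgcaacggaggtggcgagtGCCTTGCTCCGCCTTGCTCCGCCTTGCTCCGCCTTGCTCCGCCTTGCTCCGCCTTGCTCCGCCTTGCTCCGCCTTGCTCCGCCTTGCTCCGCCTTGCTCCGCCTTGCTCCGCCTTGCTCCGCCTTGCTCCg
Gm33628: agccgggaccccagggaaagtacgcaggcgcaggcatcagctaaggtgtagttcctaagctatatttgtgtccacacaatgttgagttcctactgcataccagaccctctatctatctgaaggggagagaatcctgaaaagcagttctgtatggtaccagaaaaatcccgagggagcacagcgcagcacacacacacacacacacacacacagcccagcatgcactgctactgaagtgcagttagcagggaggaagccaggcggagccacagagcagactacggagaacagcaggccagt

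A second set shows how base composition differed among such windows. The Cpeb4 window, on the plus strand at chr11:31870690-31870989, held 27 CpG dinucleotides and 68.3% G+C. The Spry2 window, on the minus strand at chr14:105896770-105897069, held 28 CpG and 62.7% G+C. The Gm30582 window, on the minus strand at chr6:71479100-71479399, held 7 CpG and 45.3% G+C. Its capitals mark 3 matches to the octamer that OCT4 is known to bind, at positions 11, 77 and 145 from the 5′ end. This window was shown because it held the most motif matches among the called windows considered. The 3 matches lie in near-identical repeated stretches, so they are not separate sites.
Cpeb4: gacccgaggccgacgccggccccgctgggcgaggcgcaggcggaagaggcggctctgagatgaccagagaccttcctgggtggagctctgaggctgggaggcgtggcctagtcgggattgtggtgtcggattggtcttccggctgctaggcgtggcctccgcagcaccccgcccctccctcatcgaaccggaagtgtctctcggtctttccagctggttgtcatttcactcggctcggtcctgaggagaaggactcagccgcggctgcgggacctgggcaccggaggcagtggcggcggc
Spry2: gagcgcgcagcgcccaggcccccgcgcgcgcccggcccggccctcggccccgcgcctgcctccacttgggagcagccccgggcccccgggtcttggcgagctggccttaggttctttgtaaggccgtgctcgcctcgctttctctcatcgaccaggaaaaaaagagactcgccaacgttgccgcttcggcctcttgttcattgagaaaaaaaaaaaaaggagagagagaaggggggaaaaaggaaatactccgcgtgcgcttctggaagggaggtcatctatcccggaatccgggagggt
Gm30582: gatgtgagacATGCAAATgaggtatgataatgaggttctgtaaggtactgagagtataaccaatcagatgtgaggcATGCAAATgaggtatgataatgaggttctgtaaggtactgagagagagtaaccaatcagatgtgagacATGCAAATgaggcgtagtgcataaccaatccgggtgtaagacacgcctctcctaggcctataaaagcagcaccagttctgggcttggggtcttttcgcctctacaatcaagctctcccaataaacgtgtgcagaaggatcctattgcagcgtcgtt

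Over the 388 windows inside the intervals, the median was 6 CpG and 51.7% G+C, against 7 CpG and 52.7% over all 32851 windows. Searched on both strands, the octamer ATTTGCAT was present in 3.09% of the 388 windows and in 1.74% of all windows. The ESRRB motif TCAAGGTCA was present in 0.773% against 0.423%, the KLF motif GGGTGTGG in 4.38% against 3.56%, the CTCF core CCACNAGGG or CCAGNAGGG in 5.15% against 4.17%, and the AP-1 motif TGANTCA in 7.47% against 7.81%. These shares are descriptions of the letters in the windows and were not tested.

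The intervals were low and narrow beside promoters. Their median width was 677 bp, with quartiles of 375 and 1083 bp, and their median level was 4.51 CPM per kb of width. CPM sets a count against all counts of its library in peaks, multiplied by the library's TMM normalization factor from edgeR. Peaks annotated as promoters had a median of 9.23 CPM per kb, intron peaks 4.35 and intergenic peaks beyond 50 kb 4.19. The level per kb was lower at greater distance. It had a median of 4.96 CPM per kb in the 6145 intervals over 1 to 5 kb from a TSS, 4.60 in the 8181 over 5 to 10 kb, 4.47 in the 10993 over 10 to 20 kb and 4.34 in the 12887 over 20 to 50 kb. The 21959 upstream intervals and the 16247 downstream ones had medians of 4.56 and 4.47 CPM per kb. By the type of the nearest gene, the median was 4.77 CPM per kb for the 13758 intervals nearest a protein-coding gene (36.0%), 4.32 for the 8775 nearest a processed pseudogene and 4.48 for the 6724 nearest a lincRNA. The 16355 nearest genes had a median of 2 intervals each. Of these genes, 7370 (45.1%) had 1 interval, and Gm12034, a processed pseudogene on chromosome 11, had the most at 16.

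**Figure D1:**
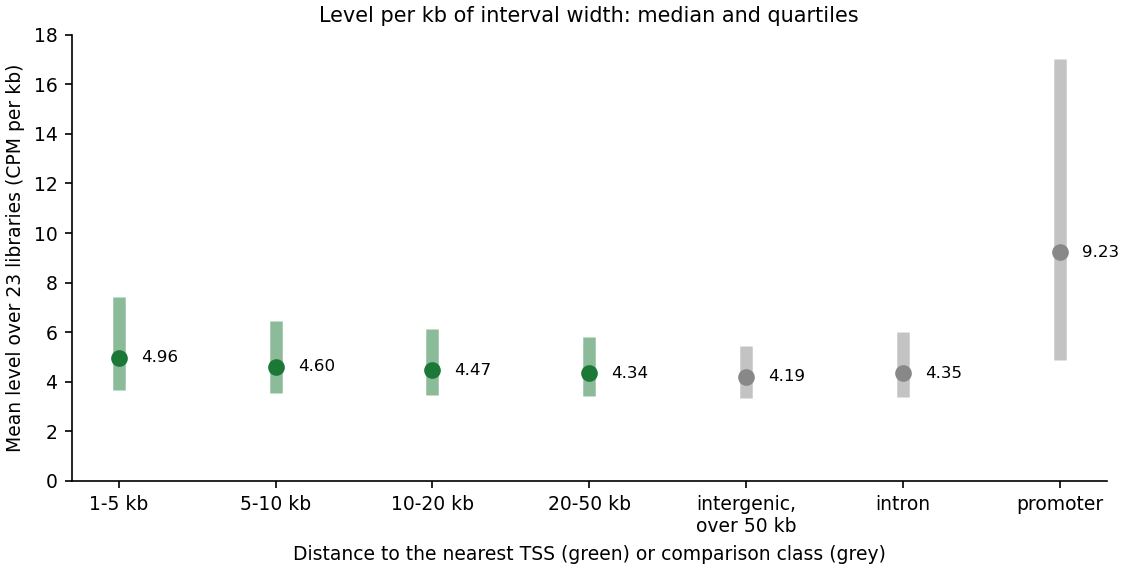
Median (point) and quartiles (bar) of the mean level over 23 libraries, in CPM per kb of interval width, for the 4 distance bands and 3 comparison classes. The bands fall stepwise with distance, with medians of 4.96, 4.60, 4.47 and 4.34, and the promoter class stands apart at 9.23.

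The interval near Gm49539 had the highest level per kb, 65.9 CPM per kb. At chr15:85634391-85635247 it had 43.2, 59.6 and 70.2 CPM (lowest, median and highest of 6) in KO Firre cells. KO control cells had 51.7, 60.9 and 81.4 CPM, WT Firre cells 48.3, 50.5, 51.8, 52.6 and 78.2 CPM, and WT control cells 40.4, 46.3 and 49.0 CPM. All 6 KO control libraries were above every WT control library. Next came the intervals near Scd2, which encodes a stearoyl-CoA desaturase, at 49.5 CPM per kb, and near Zfp395, a zinc finger gene, at 47.1 CPM per kb.

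The libraries held between 5725518 and 14977148 counts in peaks (median 7664147). A count of 3 corresponds to 0.391 CPM at the median depth, before TMM scaling. Of the 38206 intervals, 37105 (97.1%) had a count in all 23 libraries, and 34062 (89.2%) passed the filter on low counts and were tested, while 4144 were not. At the Firre locus, 19 peaks outside its exons summed to 5.58 ± 0.523 CPM in KO Firre, 3.01 ± 0.986 in KO control, 101.8 ± 9.75 in WT Firre and 89.5 ± 6.997 in WT control cells (SD). The 1 exonic peak had 17.4, 7.19, 25.4 and 2.04 CPM in the same order of lines. Promoters of 8 pluripotency genes were open in every line, between 404 and 482 CPM in KO Firre and between 369 and 395 CPM in WT control libraries. The share of counts in all promoter peaks (those annotated as such or within 1000 bp of a TSS) differed between lines, with means of 41.8% in KO Firre, 42.1% in KO control, 40.8% in WT Firre and 38.98% in WT control cells. It reached 43.1% in the KO control libraries of 30 and 90 min and 44.3% in the WT Firre library of 150 min. Those 2 KO control libraries stood apart in earlier work on these data, and results that rest on them are also given without them.

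Together the intervals took 18.2% ± 0.155 of the counts in KO Firre cells, 18.04% ± 0.225 in KO control cells, 18.5% ± 0.675 in WT Firre cells and 18.99% ± 0.149 in WT control cells (SD, n = 6, 6, 5 and 6). Every KO control library, at 17.8% to 18.3%, lay below every WT control library, at 18.8% to 19.2%. The WT Firre libraries had 18.8, 18.99, 18.9, 18.2 and 17.4% at 0, 30, 90, 120 and 150 min. The library of 150 min was the lowest of all 23 in this share and the highest in its promoter share. A share of counts is relative, so it moves down where another class of peaks takes more of the library. No test was made of this sum over the intervals.

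**Figure D2:**
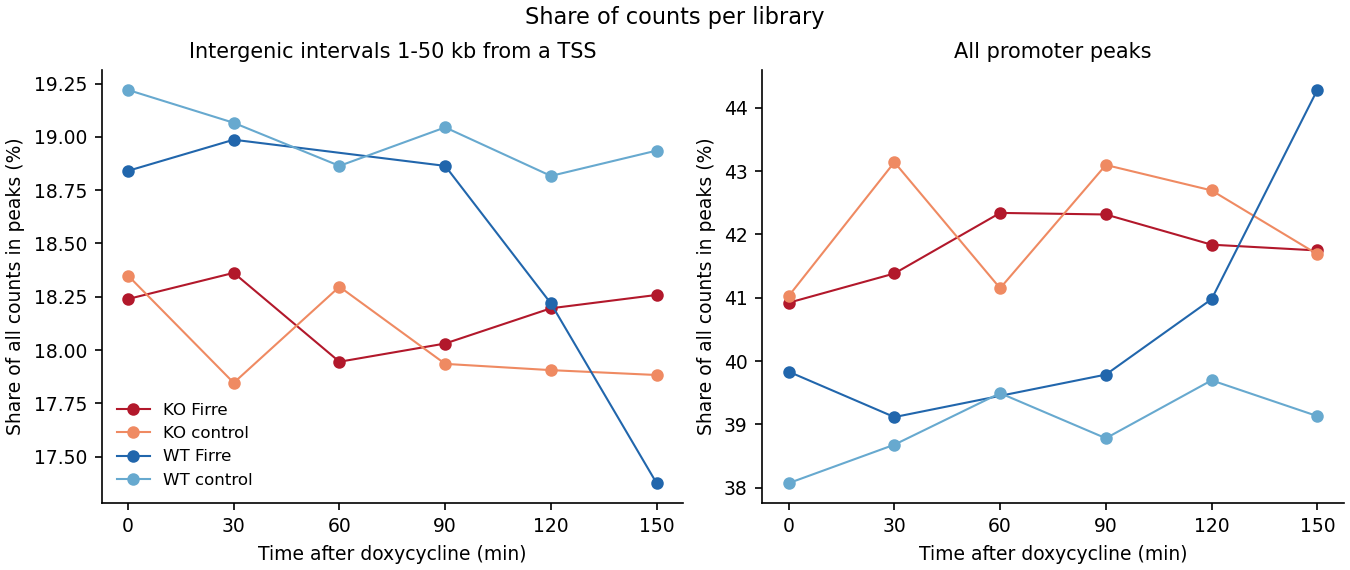
Share of all counts in peaks (%) that fell in the intergenic intervals (left) and in all promoter peaks (right), 1 point per library, against minutes of doxycycline. WT control libraries lie at 18.8% to 19.2% on the left, above all KO control libraries, and the WT Firre library of 150 min lies at 17.4% on the left and 44.3% on the right.

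The comparison of KO control with WT control cells asks how loss of Firre goes with accessibility. It called 2034 of the 34062 tested intervals (5.97%) at an edgeR adjusted p of 0.05 or less, 1155 higher (3.39%) and 879 lower (2.58%) in KO control cells. Of all 129515 peaks tested, 7.97% were called, 5.5% higher and 2.47% lower, so the called share of the intervals lay below that background for higher calls and near it for lower ones. Promoter peaks had 19.6% called, 18.4% higher and 1.27% lower, whereas intron peaks had 5.98% and intergenic peaks beyond 50 kb 5.58% called. In bulk samples, an interval that is open in fewer cells cannot be told apart from one that is less open in each cell. The median log2 fold change over the tested intervals was -0.04. Scaling by total counts in place of edgeR's TMM normalization factors turned the split round, to 554 higher and 1961 lower with a median of -0.13, and DESeq2 with its own size factors called 684 higher and 167 lower. The promoter share stood at 42.1% in KO control and 38.98% in WT control cells, and in a fit with that share as covariate 9 intervals were called, 7 higher and 2 lower. It was 41.0 to 43.1% in KO control and 38.1 to 39.7% in WT control libraries, with no overlap. That fit can therefore hardly separate the share from the line, and a call that ended in it need not be unstable. Without the KO control libraries of 30 and 90 min 431 were called, 293 higher and 138 lower.

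By distance, the called share was 6.29, 6.08, 5.91 and 5.80% from the nearest band to the farthest. The share higher in KO control cells was 4.07% over 1 to 5 kb and 2.92% over 20 to 50 kb, and the share lower was 2.22% and 2.88% in those bands. Wider intervals, whose counts are larger, were called more often, 9.77% among the widest of 4 classes against 1.87% among the narrowest, and the median standard error of the log2 fold change was 0.115 in the widest and 0.281 in the narrowest. The difference between bands was not tested. Intervals with a RefSeq start window inside had 35 of 350 called (10%), 23 higher and 12 lower, against 5.97% of all the intervals and 7.97% of all peaks. They were wide, with a median of 1320.5 bp against 672 bp for the others, and their called share was near the 9.77% of the widest class.

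**Figure D3:**
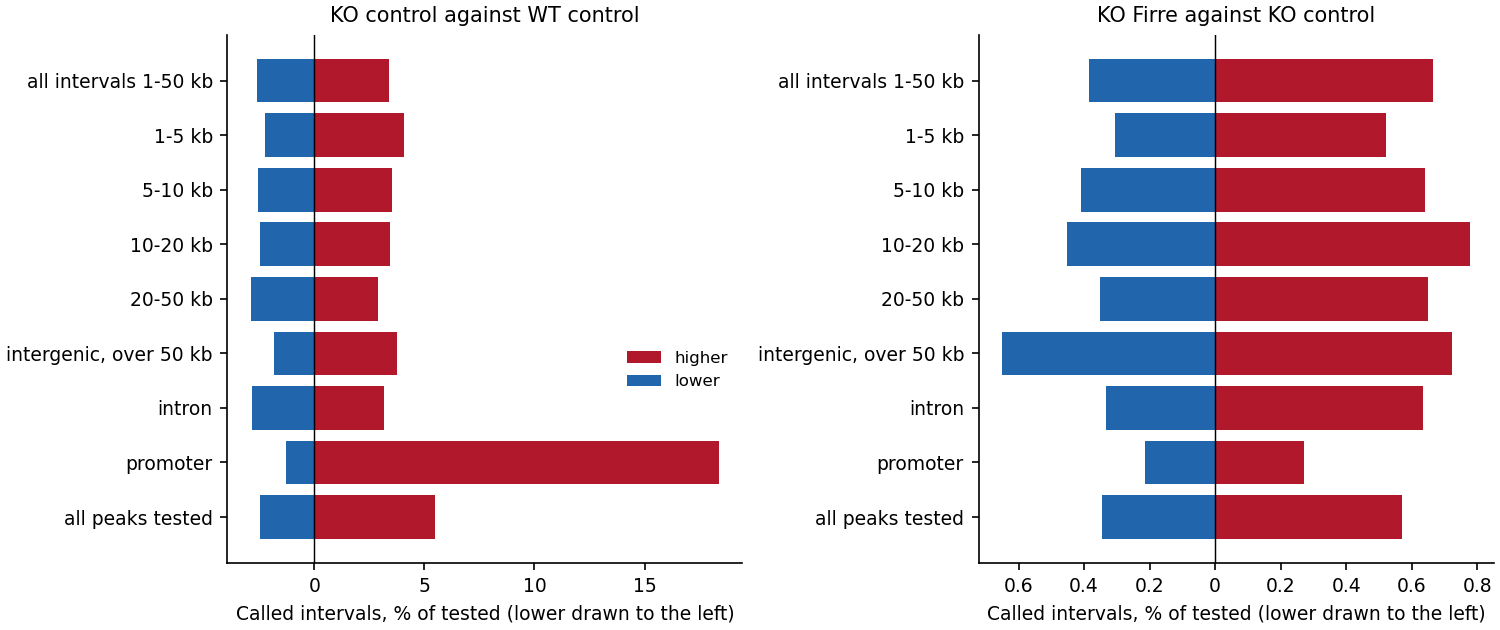
Called intervals as a percentage of those tested, higher to the right and lower to the left, for the intergenic intervals, their 4 distance bands, 3 comparison classes and all peaks, in KO control against WT control (left) and KO Firre against KO control (right). The promoter bar reaches 18.4% higher on the left panel while the intergenic intervals reach 3.39%; on the right panel they reach 0.663% higher and 0.385% lower.

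Chromosome 11 carried a large part of the higher calls. Of its 2635 tested intervals, 333 were higher and 21 lower in KO control than in WT control cells (13.4% called), with a median log2 fold change of 0.13. The other chromosomes together had 822 higher and 858 lower of 31427, with a median of -0.06. The called share over all peaks of chromosome 11 was not counted. A trait of these intervals therefore cannot be told apart from a shift of the whole chromosome. Against the WT control mean, the median log2 level of the chromosome 11 intervals averaged 0.04 over KO Firre libraries (lowest 0.01, highest 0.09), 0.09 over KO control libraries (0.04 to 0.13) and -0.04 over WT Firre libraries. KO control and WT control ranges did not overlap, and KO Firre libraries overlapped the KO control range. The 2034 called intervals lay nearest 1820 genes, and 174 of these genes had more than 1 call, 45 of them on chromosome 11. The pseudogene Gm12034 had 6 of 13 tested intervals higher, Gm12052 had 6 of 11 and Spdl1, which encodes a mitotic spindle protein, had 4 of 4. Ptma, the prothymosin gene on chromosome 1, had 4 of 6 called with 3 higher.

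**Figure D4:**
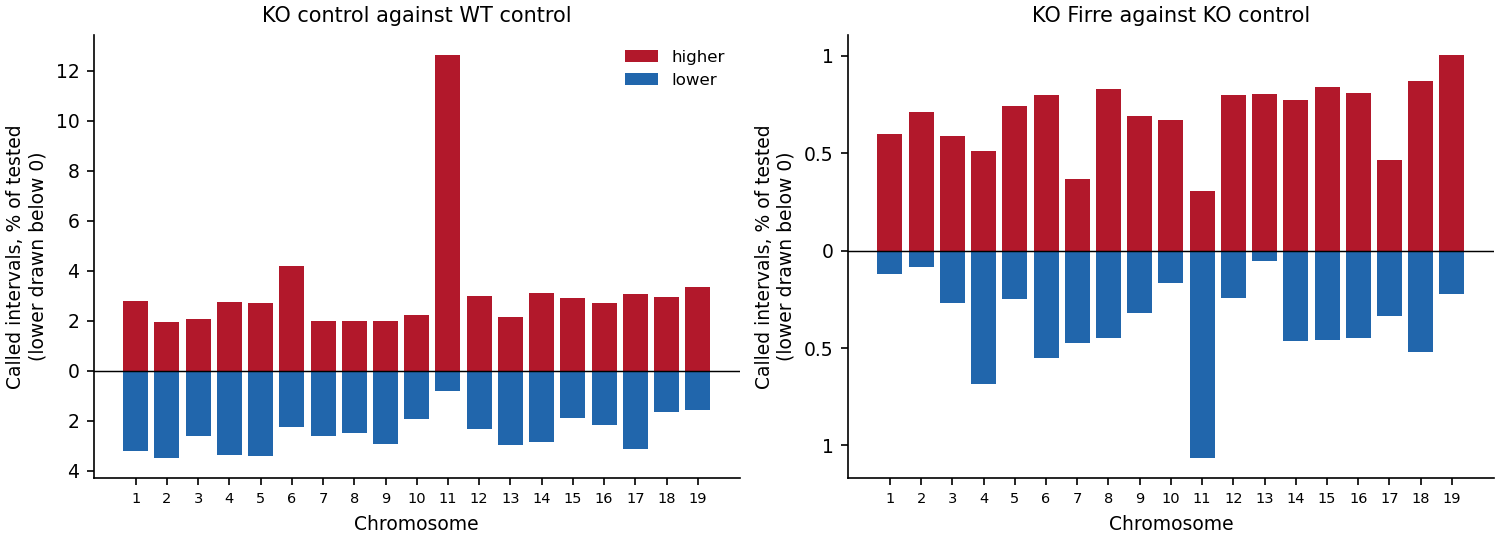
Called intervals as a percentage of those tested on each of chromosomes 1 to 19, higher above 0 and lower below, in KO control against WT control (left) and KO Firre against KO control (right). Chromosome 11 stands out on the left, with 333 of 2635 intervals higher; on the right it has 8 higher and 28 lower.

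In 542 of the 2034 called intervals the KO control and WT control libraries did not overlap, 352 higher and 190 lower, which is 1.59% of the intervals tested against 2.57% of all peaks. The largest difference with counts in every line lay near Gm7986, a processed pseudogene on chromosome 12. At chr12:72032723-72033796, 16000 bp downstream of the TSS, the level was 1.28, 1.46 and 2.14 CPM (lowest, median, highest) in KO Firre cells and 0.751, 1.83 and 2.05 CPM in KO control cells. It was 2.23, 1.42, 2.09, 3.29 and 1.66 CPM in WT Firre cells, against 6.87, 7.63 and 8.50 CPM in WT control cells. The WT control line alone was high, and its libraries did not overlap those of any other line. Relative to WT control cells, the log2 fold change was -2.19 ± 0.17 (SE) in KO control (edgeR adjusted p = 8.07e-21) and -1.84 ± 0.17 in WT Firre cells (edgeR adjusted p = 1.81e-15), 2 comparisons that share the WT control libraries.

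The other interval near Gm7986, at chr12:72052470-72054878 and 4415 bp upstream, went the opposite way. It had 21.2, 22.6 and 25.6 CPM in KO Firre cells, 19.6, 21.2 and 25.7 CPM in KO control cells and 21.8, 17.9, 20.2, 18.01 and 20.4 CPM in WT Firre cells, against 8.16, 10.05 and 12.5 CPM in WT control cells. Again WT control cells stood alone, here on the low side, with no overlap. Set against WT control, KO control had a log2 fold change of 1.10 ± 0.10 and WT Firre one of 0.93 ± 0.11 (edgeR adjusted p = 2.73e-16 and 1.38e-10). Both intervals kept all 4 of these calls under every alternative run.

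Another interval set the WT control line apart. Near the pseudogene Gm18508, at chr10:28997735-28998078, all 6 WT control libraries had 0 counts, whereas 75 counts were summed over KO Firre, 77 over KO control and 86 over WT Firre libraries. Levels were 0.569, 1.75 and 2.01 CPM in KO Firre cells, 1.07, 1.56 and 2.50 CPM in KO control cells and 2.76, 1.42, 1.70, 2.10 and 1.53 CPM in WT Firre cells. A floor of 3 counts over the WT control libraries together was 0.0700 CPM, without TMM scaling. Against that floor, the level was at least 22.8-fold higher in KO Firre, at least 22.6-fold higher in KO control and at least 27.2-fold higher in WT Firre cells. The edgeR adjusted p was 3.40e-11 for KO control and 7.07e-12 for WT Firre, each against WT control. At these counts DESeq2 and the stricter filter did not test it. The floor covers counting error only.

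Among the other intervals that did not overlap, the one near Olfr718-ps1 on chromosome 5 had 6.46, 7.15 and 8.64 CPM in KO control cells, against 2.04, 3.10 and 4.81 CPM in WT control cells. Its log2 fold change was 1.15 ± 0.15 (edgeR adjusted p = 8.44e-09). The interval near Vdac1, the gene of a channel in the outer mitochondrial membrane, had 4.76, 4.94 and 5.76 CPM in KO control cells, against 1.84, 2.46 and 3.26 CPM in WT control cells (log2 fold change 1.01 ± 0.17, edgeR adjusted p = 7.27e-06). In the lower direction, the interval near Gm26144, a snoRNA gene on chromosome 4, had 0.979, 1.26 and 1.83 CPM in KO control cells, against 2.31, 3.17 and 4.11 CPM in WT control cells (log2 fold change -1.29 ± 0.22, edgeR adjusted p = 2.07e-05). These 3 calls ended once the promoter share entered the fit.

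Lists of pluripotency genes and of their signalling inputs were counted against a called share of 5.97% of the intervals and 7.97% of all peaks. Of 27 core and naive pluripotency genes, 20 had intervals, 62 of them tested, of which 3 were higher and 2 lower in KO control than in WT control cells (8.06% called). The median log2 fold change of the 62 was 0.07, beside -0.04 over all intervals tested. Lefty1 and Lefty2, which encode secreted inhibitors of Nodal, each had a higher interval. The Lefty1 interval had 15.4, 18.7 and 20.9 CPM in KO control cells, against 11.4, 12.7 and 14.4 CPM in WT control cells, with no overlap (log2 fold change 0.52 ± 0.09, edgeR adjusted p = 5.30e-05). The Lefty2 interval had 58.3, 69.6 and 86.8 CPM in KO control cells, against 46.5, 54.8 and 58.7 CPM in WT control cells, with a slight overlap (log2 fold change 0.39 ± 0.09, edgeR adjusted p = 0.0012). Klf2, a naive pluripotency factor, had an interval 2731 bp upstream at a log2 fold change of 0.29 ± 0.09 (edgeR adjusted p = 0.0313). The 2 lower ones included that of Gbx2, a homeobox gene, at -0.65 ± 0.20 (edgeR adjusted p = 0.0259). The Lefty2 and Klf2 calls ended without the KO control libraries of 30 and 90 min, as did that of Gbx2. All 3 also ended with loess offsets. The Klf2 call ended in 11 of 33 alternatives, among them DESeq2, total-count scaling and 6 fits without 1 library. The Gbx2 call ended in 9 of 31, among them 5 fits without 1 library. The calls of Lefty1, Lefty2, Klf2 and Gbx2 ended in the fit with the promoter share.

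Of 14 Wnt and LIF target genes, 7 had intervals, 23 of them tested, of which 3 were higher and 1 lower in KO control than in WT control cells (17.4% called). These 4 calls lie near 3 genes. Axin2, a feedback inhibitor of Wnt signalling, had an interval with 10.6, 12.2 and 15.0 CPM in KO control cells, against 7.005, 8.89 and 9.95 CPM in WT control cells, with no overlap (log2 fold change 0.51 ± 0.11, edgeR adjusted p = 0.000475). Socs3, the feedback inhibitor of LIF-STAT3 signalling, had a higher interval on either side of its TSS, 6255 bp downstream and 6334 bp upstream. The downstream one had 34.5, 38.5 and 47.0 CPM in KO control cells, against 27.1, 30.0 and 32.8 CPM in WT control cells (log2 fold change 0.38 ± 0.09, edgeR adjusted p = 0.00187). The upstream one had 35.7, 44.6 and 51.1 CPM in KO control cells, against 30.3, 34.5 and 36.8 CPM in WT control cells (log2 fold change 0.35 ± 0.09, edgeR adjusted p = 0.00343). Ranges overlapped only in the upstream one. Pim1, a kinase gene induced by STAT3, had the lower interval, with 2.196, 2.85 and 3.42 CPM in KO control cells, against 3.76, 4.16 and 5.52 CPM in WT control cells and no overlap (log2 fold change -0.60 ± 0.17, edgeR adjusted p = 0.0106). The calls of both Socs3 intervals and of Pim1 ended without the KO control libraries of 30 and 90 min. All 4 calls, that of Axin2 included, ended in the fit with the promoter share. Both Socs3 calls also ended with loess offsets, the upstream one without the WT control library of 90 min. The Pim1 call also ended without the 0 min libraries. Axin2 and Socs3 lie on chromosome 11, where 13.4% of the tested intervals were called.

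Of 24 tested intervals of formative and primed genes, 1 was lower, and of 35 of germ layer and trophoblast genes, 1 was higher, the one near the homeobox gene Gsc at chr12:104447124-104449412 (log2 fold change 0.39 ± 0.09, edgeR adjusted p = 0.00146). The Gsc call ended without the KO control libraries of 30 and 90 min and in the fit with the promoter share. Of 24 tested intervals of immediate early and stress genes, 2 were higher and 1 lower, and of 8 near developmental microRNA and lncRNA hosts 1 was higher. Neither the 4 tested intervals of 2-cell-like genes nor the 14 of fibroblast genes, which would mark feeder cells, had a call. Their median log2 fold changes were -0.30 and 0.15. Promoters of 7 fibroblast genes summed to between 61.4 and 66.6 CPM in KO Firre libraries and between 57.9 and 69.0 CPM in WT control libraries.

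Of the 35 called intervals that held a RefSeq start, 4 are described here, chosen after their values were seen. The one near Cpeb4, which encodes an mRNA-binding protein and whose RefSeq window is shown above, had 40.2, 45.1 and 50.3 CPM in KO control cells, against 27.2, 32.0 and 35.3 CPM in WT control cells, with no overlap (log2 fold change 0.50 ± 0.09, edgeR adjusted p = 1.59e-05). The Spry2 interval, near the gene of a feedback inhibitor of receptor tyrosine kinase signalling, had 48.1, 56.0 and 62.1 CPM in KO control cells, against 40.4, 43.6 and 48.6 CPM in WT control cells, with a slight overlap (log2 fold change 0.31 ± 0.08, edgeR adjusted p = 0.00821). The interval with the Gm33628 window had 29.5, 31.5 and 43.1 CPM in KO control cells, against 21.1, 26.6 and 29.2 CPM in WT control cells, again with no overlap (log2 fold change 0.37 ± 0.09, edgeR adjusted p = 0.00382). The interval with the 3 octamer matches, nearest Gm44186, had 5.90, 7.30 and 7.63 CPM in KO control cells, against 4.08, 5.30 and 6.82 CPM in WT control cells (log2 fold change 0.42 ± 0.13, edgeR adjusted p = 0.0233), and these ranges overlapped. The Spry2, Gm33628 and Gm44186 calls ended without the KO control libraries of 30 and 90 min, and those of Spry2 and Gm33628 also with loess offsets. The Spry2 call further ended without the WT control library of 90 min and the Gm33628 call without the KO control library of 90 min. The Gm44186 call also ended under DESeq2, with total-count scaling and without any 1 of 5 control libraries. Adding the promoter share to the fit ended all 4 calls, and for Cpeb4 it was the only alternative of 33 that did. The Cpeb4 interval lies on chromosome 11, where 13.4% of the tested intervals were called.

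The comparison of KO Firre with KO control cells asks what the transgene adds in cells without endogenous Firre. It called 357 of the 34062 intervals (1.05%), 226 higher (0.663%) and 131 lower (0.385%) in KO Firre cells, against 0.913% of all peaks, 0.569% higher and 0.344% lower. Promoter peaks had 0.486% called, intron peaks 0.967% and intergenic peaks beyond 50 kb 1.37%. The bands had 0.825, 1.05, 1.23 and 1.00% called from nearest to farthest, and the median log2 fold change was -0.00. The calls were spread over 352 genes, so nearly every one had a single called interval. On chromosome 11, 8 were higher and 28 lower of 2635, with a median of -0.06. This comparison shares its KO control libraries with the one above. Of the 357, 135 were also called there, all in the opposite direction. Because the libraries are shared, the 2 results are not separate, and the matching share over all peaks was not counted. In 146 of the 357 the libraries of the 2 lines did not overlap, 86 higher and 60 lower, which is 0.429% of the intervals tested against 0.382% of all peaks. Such a lack of overlap fixes the direction at 0 min as well, so it does not tell when a difference arose. DESeq2 called 41, and without the KO control libraries of 30 and 90 min 182 were called.

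Fzd2, which encodes a Wnt receptor, had an interval 8895 bp upstream, at chr11:102594951-102596052, with 2.96, 4.09 and 5.40 CPM in KO Firre cells, against 6.69, 8.51 and 10.1 CPM in KO control cells. WT Firre cells had 4.86, 5.55, 3.92, 5.00 and 3.70 CPM, against 3.50, 5.19 and 6.66 CPM in WT control cells. KO control cells were high alone, and no KO control library overlapped another line. The log2 fold change of KO Firre against KO control was -1.04 ± 0.13 (edgeR adjusted p = 1.33e-07), and that of KO control against WT control was 0.71 ± 0.13 (edgeR adjusted p = 5.11e-05). The interval near the lincRNA 9030404E10Rik, 6494 bp upstream at chr16:30045577-30046369, had 2.22, 2.79 and 3.71 CPM in KO Firre cells, against 4.94, 5.89 and 8.01 CPM in KO control cells. Here KO Firre cells were the low line, since WT Firre libraries had 4.99, 5.29, 4.32, 4.34 and 4.09 CPM and WT control libraries 4.28, 5.07 and 5.98 CPM. Between KO Firre and KO control the log2 fold change was -1.10 ± 0.15 (edgeR adjusted p = 9.26e-07). The calls of KO Firre against KO control held under every alternative run for both intervals. Both differences were present at 0 min, with 5.40 CPM in KO Firre and 10.1 CPM in KO control cells near Fzd2. Near 9030404E10Rik the 0 min libraries had 2.56 and 8.01 CPM. The KO control against WT control call of Fzd2 ended in the fit that held the promoter share. The Fzd2 interval lies on chromosome 11, where 13.4% of the tested intervals were called in that comparison.

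In the higher direction, the interval near Bhlhe40, which encodes a basic helix-loop-helix repressor, lay 41527 bp downstream. It had 2.51, 2.84 and 4.03 CPM in KO Firre cells, against 0.549, 1.34 and 2.05 CPM in KO control cells, with no overlap (log2 fold change 1.19 ± 0.23, edgeR adjusted p = 0.00113). The interval 45082 bp downstream of Slc5a8, which encodes a monocarboxylate transporter, had 2.93, 4.60 and 5.77 CPM in KO Firre cells, against 1.83, 2.40 and 2.80 CPM in KO control cells, with no overlap (log2 fold change 0.91 ± 0.18, edgeR adjusted p = 0.00175). The interval near Gm37309 on chromosome 1 had 2.78, 3.73 and 4.08 CPM in KO Firre cells, against 1.38, 1.63 and 2.01 CPM in KO control cells, also with no overlap (log2 fold change 1.11 ± 0.20, edgeR adjusted p = 0.000439). Each of these levels rests on few reads per library. In the lower direction, the interval near the lincRNA Gm45218 had 0.765, 1.23 and 1.89 CPM in KO Firre cells, against 2.196, 2.75 and 4.76 CPM in KO control cells (log2 fold change -1.19 ± 0.24, edgeR adjusted p = 0.00187). The interval near the snoRNA gene Gm25495 had 2.27, 3.07 and 3.70 CPM in KO Firre cells, against 4.70, 5.95 and 6.55 CPM in KO control cells (log2 fold change -0.89 ± 0.15, edgeR adjusted p = 0.000178). Neither overlapped between the 2 lines.

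Of the fixed gene lists, 1 had a call in this comparison. It was an interval 9060 bp downstream of the TSS of Myc, a transcription factor gene of the immediate early list, at chr15:61994279-61995686. The interval had 4.68, 5.66 and 7.02 CPM in KO Firre cells, against 6.40, 8.27 and 9.48 CPM in KO control cells, with ranges that overlapped (log2 fold change -0.54 ± 0.12, edgeR adjusted p = 0.00893). The call ended under DESeq2 and without the 0 min libraries. The interval with the Gm12059 window shown above, nearest Gm23740, had 14.1, 17.0 and 20.2 CPM in KO Firre cells, against 18.7, 22.8 and 24.5 CPM in KO control cells, with some overlap (log2 fold change -0.35 ± 0.09, edgeR adjusted p = 0.0257). That call ended under DESeq2, without the 2 KO control libraries named above and in 7 of the fits that left out 1 library.

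WT Firre against WT control cells, the transgene added to the endogenous gene, had 32 intervals called (0.0939%), 25 higher and 7 lower, against 0.0818% of all peaks, 0.061% higher and 0.0208% lower. Total-count scaling gave 21 higher and 11 lower, and DESeq2 gave 9 higher and 1 lower. In 25 of the 32 the libraries of the 2 lines did not overlap, which is 0.0734% of the intervals tested against 0.0625% of all peaks. By that choice their 0 min libraries differ in the same direction, which does not show when the difference arose. Zfp42, whose product REX1 is a marker of naive pluripotency, had an interval 14029 bp upstream, at chr8:43320572-43321358. It had 4.46, 4.52, 4.84, 5.52 and 6.00 CPM in WT Firre cells, against 1.69, 2.61 and 3.65 CPM in WT control cells. All WT Firre libraries were above all WT control libraries (log2 fold change 0.88 ± 0.17, edgeR adjusted p = 0.00341). In the other background it had 2.09, 2.67 and 3.27 CPM in KO Firre cells, against 2.38, 3.49 and 4.70 CPM in KO control cells (log2 fold change -0.50 ± 0.18, edgeR adjusted p = 0.176). The call in WT cells ended under DESeq2, in the fit that held the promoter share, and without either 150 min library of those 2 lines. The interval near Rpl21-ps6, which holds the tandem repeat shown above, had 14.6, 15.7, 15.4, 15.9 and 19.5 CPM in WT Firre cells, against 8.84, 9.95 and 11.9 CPM in WT control cells. These groups did not overlap. KO Firre cells had 10.3, 10.9 and 12.7 CPM and KO control cells 11.1, 13.3 and 14.1 CPM. Between WT Firre and WT control the log2 fold change was 0.73 ± 0.10 (edgeR adjusted p = 3.23e-07), and the call held under every alternative run. The interval near the lincRNA Gm41031, at chr13:97844874-97845526, had 3.67, 2.71, 2.03, 3.29 and 3.58 CPM in WT Firre cells, against 0.408, 1.00 and 1.26 CPM in WT control cells, with no overlap (log2 fold change 1.63 ± 0.27, edgeR adjusted p = 6.84e-05).

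The 2 transgene comparisons share no library, and the difference between them was tested as an interaction. It called 98 intervals (0.288%), 46 higher and 52 lower, against 0.266% of all peaks. Scaling by total counts gave 90 higher and 37 lower, and DESeq2 gave 1 higher and 8 lower. The 4 intervals called in both transgene comparisons make up 1.12% of the 357 called in the KO background and 12.5% of the 32 called in the WT background. They were named after their values were seen. Of these 4, 2 were higher in both, 1 was lower in both and 1 had opposite directions.

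The interval near the processed pseudogene Gm15516, at chr14:45724080-45724931, had 1.14, 4.90, 4.14, 6.38, 5.66 and 5.54 CPM in KO Firre cells from 0 to 150 min, against 1.47, 1.86 and 2.84 CPM (lowest, median, highest) in KO control cells. WT Firre cells had 3.15, 2.97, 5.17, 6.05 and 8.17 CPM at 0, 30, 90, 120 and 150 min, against 2.27, 2.52 and 4.34 CPM in WT control cells. The KO Firre library of 0 min was below the KO control libraries and the later ones were above them. In WT Firre cells the libraries of 90, 120 and 150 min were above the whole WT control range. The log2 fold change was 1.24 ± 0.19 in the KO background (edgeR adjusted p = 1.89e-05) and 0.85 ± 0.18 in the WT background (edgeR adjusted p = 0.0128). The call in the WT background ended in 7 of 33 alternatives, among them the fits without the WT Firre library of 150 min and without the WT control library of 90 or of 150 min. No test over time, described below, called the interval. Its slope with hours of induction was 0.33 ± 0.16 log2 units per hour (edgeR adjusted p = 0.976).

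The interval near AC154542.1, at chr17:86160051-86160852, had 3.55, 2.92, 5.64, 5.23, 6.79 and 6.03 CPM in KO Firre cells from 0 to 150 min, against 2.49, 3.09 and 3.72 CPM in KO control cells. WT Firre cells had 3.41, 3.48, 5.30, 5.78 and 7.92 CPM, against 1.495, 2.89 and 4.28 CPM in WT control cells. In both transgenic lines the libraries of 0 and 30 min lay within the range of their control line, and those from 60 min on (90 min in WT Firre) lay above it. The log2 fold change was 0.77 ± 0.16 in the KO background (edgeR adjusted p = 0.00399) and 0.88 ± 0.17 in the WT background (edgeR adjusted p = 0.00227). The WT call ended without the WT Firre library of 150 min. DESeq2 called it in neither background. The tests over time did not call this interval either, and its slope was 0.31 ± 0.14 log2 units per hour (edgeR adjusted p = 0.976).

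The interval near Tle7, at chr8:110122777-110125132, was lower in both transgenic lines. It had 8.87, 10.1 and 13.01 CPM in KO Firre cells, against 13.7, 17.3 and 19.7 CPM in KO control cells, and 10.1, 10.5, 7.91, 7.36 and 8.30 CPM in WT Firre cells, against 9.06, 12.1 and 15.3 CPM in WT control cells. Ranges overlapped in the WT background only. The log2 fold change was -0.69 ± 0.10 (edgeR adjusted p = 1.73e-06) in the KO background and -0.48 ± 0.11 (edgeR adjusted p = 0.0455) in the WT background, where 21 of 33 alternatives ended the call. The interval near n-TSaga9, at chr4:10864924-10865477, went in opposite directions. It had 0.383, 0.754 and 0.995 CPM in KO Firre cells, against 0.626, 1.95 and 2.67 CPM in KO control cells, and 2.23, 3.10, 1.57, 2.63 and 2.30 CPM in WT Firre cells, against 0.420, 0.833 and 1.13 CPM in WT control cells. The lines overlapped in the KO background and not in the WT background. The log2 fold changes were -1.26 ± 0.31 and 1.52 ± 0.29 (edgeR adjusted p = 0.0197 and 0.00241), and their difference was -2.78 ± 0.43 (edgeR adjusted p = 1.90e-05).

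**Figure D5:**
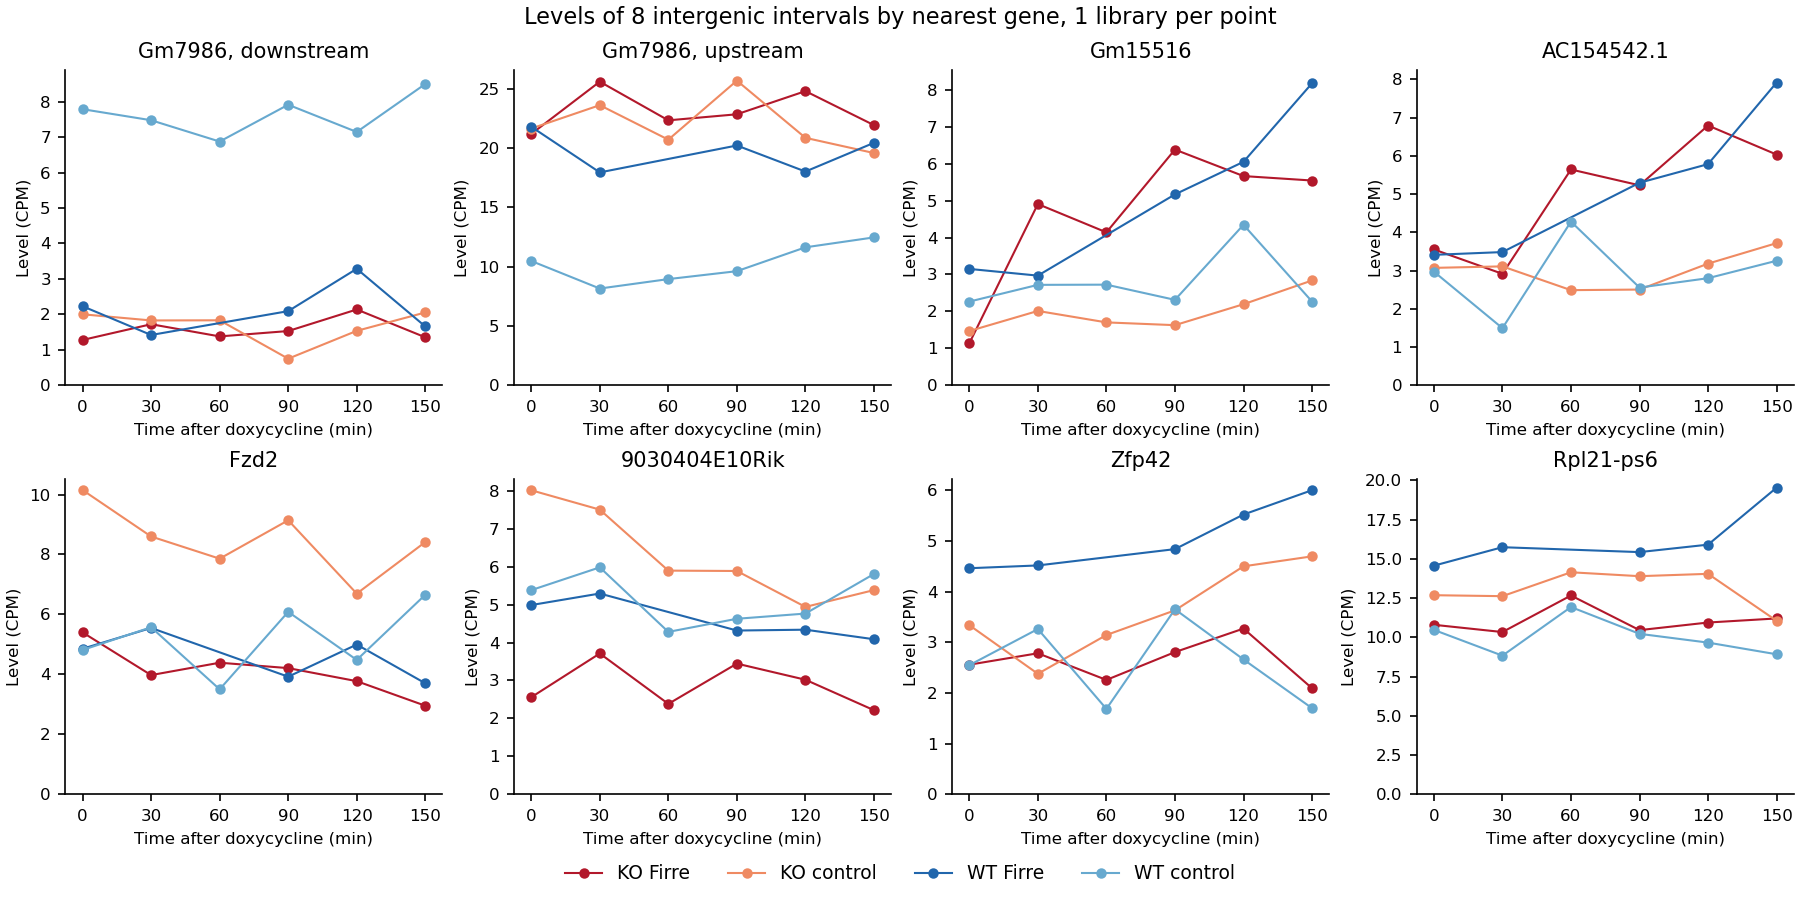
Level in CPM of 8 intergenic intervals against minutes of doxycycline, 1 point per library and 1 line per cell line. WT control cells stand alone at the pair of Gm7986 intervals, KO control cells at Fzd2, KO Firre cells at 9030404E10Rik and WT Firre cells at Rpl21-ps6. At Zfp42 WT Firre cells lie above WT control cells but overlap KO control cells, while Gm15516 and AC154542.1 are highest in the later libraries of both transgenic lines. No test over time called the Gm15516 or AC154542.1 interval.

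The design's main question is the change with time of induction. No interval was called by edgeR in any of the 4 tests over time. The mean of the transgene-by-time terms, which sets 30 to 150 min against 0 min in transgenic relative to control lines, had 1361 intervals (3.996%) at an unadjusted p under 0.05. The joint test over the times had 1501 (4.41%), the slope with hours of induction 1658 (4.87%), and the mean change of the control lines after doxycycline 1680 (4.93%). DESeq2 and limma-voom also called 0 intervals in each, and DESeq2 had 210, 37, 528 and 300 at an unadjusted p under 0.05. Over all peaks the called shares were 0% for the mean response, 0.000772% for the time course, 0.000772% for the slope and 0% for the control lines. The joint test called 1 interval without the KO control libraries of 30 and 90 min. In simulated data, among peaks of higher counts, the mean response test recovered 5.97% of 1.5-fold, 53.7% of 2-fold and 95.5% of 4-fold changes. The slope test recovered 71.6% of changes of 1.5-fold per hour. An absence of calls therefore does not show an absence of smaller changes.

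The smallest p of the mean response belonged to the interval 8897 bp upstream of Ier5l, at chr2:30482834-30483399. It had 2.56, 3.45, 3.89, 4.21, 4.66 and 3.69 CPM in KO Firre cells from 0 to 150 min, 5.48, 1.65, 3.93, 2.25, 1.87 and 3.52 CPM in KO control cells, 2.76, 4.39, 4.32, 3.42 and 4.09 CPM in WT Firre cells and 4.96, 2.85, 3.50, 3.41, 2.66 and 3.97 CPM in WT control cells. At 0 min both control libraries were above both transgenic ones. The log2 difference was 1.44 ± 0.32 (edgeR adjusted p = 0.464). The interval near Psors1c2 on chromosome 17 had the smallest p among positive slopes. It had 9.67, 10.2, 11.9, 14.8, 13.7 and 15.6 CPM in KO Firre cells and 10.4, 8.26, 11.5, 13.02 and 13.4 CPM in WT Firre cells, against 8.02 to 12.3 CPM in KO control and 10.3 to 12.8 CPM in WT control cells. Its slope was 0.37 ± 0.08 log2 units per hour (edgeR adjusted p = 0.681). Zfp819, a zinc finger gene, had the interval with the smallest p among negative slopes, at -0.43 ± 0.11 log2 units per hour (edgeR adjusted p = 0.8294). In the control lines the smallest p belonged to the interval near Plekhb2, with a log2 change of -0.90 ± 0.19 (edgeR adjusted p = 0.609). Its libraries of 0 min, at 6.68 CPM in KO control and 6.66 CPM in WT control cells, were the highest of their lines.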

How the data were processed

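Per the labels' protocols, ATAC-seq libraries were made by the Omni-ATAC method from mESCs treated with doxycycline. The submitters' processing notes name mm10, MACS2 2.2.7.1 and featureCounts. The sources used here give no aligner and no filters. The authors deposited 1 table of raw read counts per merged peak and library, with peak annotation. Whether its coordinates count from 0 or 1 is not stated, and they are printed as deposited.

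From these counts, CPM was computed over all counts in peaks, and CPM per kb by width. edgeR 4.0.16 (R 4.3.3) fitted all 129515 peaks that passed filterByExpr (minimum count 10) with TMM scaling, robust quasi-likelihood tests and Benjamini-Hochberg adjustment over all of them. Called means an adjusted p of 0.05 or less. Line comparisons used line and time as terms. Time comparisons added transgene by time, or by hours for the slope. The times of a line were its repeats. Members, gene lists and tests were chosen with earlier results of these data known. Genes named were the non-overlapping called intervals with the largest log2 difference, those with the highest CPM per kb, called or highest members of each list, and those with the smallest p over time; intervals with RefSeq windows and those called in both transgene comparisons were added after their values were seen. No genome was used, so the planned motif search over whole intervals was replaced by RefSeq windows. Alternatives were DESeq2 1.42.0, limma-voom (limma 3.58.1), total-count and loess scaling, no filter, a minimum count of 30, no time term, the promoter share as a covariate, and fits without the KO control libraries of 30 and 90 min, without 0 min, and without each library in turn. Fits were tested on simulated data.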

Additional observations from a re-analysis of the deposited data

Results flagged for a closer look

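Within a line, the gap between the highest or lowest library and its nearest neighbour was judged by Dixon's criterion. This was done for each named interval and for the share of counts in the intervals, in 172 groups, of which 13 were marked. The WT control group near Gm18508, with 0 counts throughout, is among the 172 and could not be marked. Chance marks about 1 in 20 groups. The WT Firre library of 150 min was the highest of its line in 5 of them, with 19.5 CPM near Rpl21-ps6, 78.2 CPM near Gm49539, 54.9 CPM near Scd2, 45.5 CPM near Socs3 (downstream) and 45.7 CPM near Cpeb4. That library also had the highest promoter share, 44.3%, whose part in these values was not tested. The others were the KO Firre library of 0 min near Gm18508 (0.569 CPM, low), that of 60 min near Rpl21-ps6 (12.7 CPM, high), the KO control library of 90 min near Gm45218 (4.76 CPM, high), that of 60 min near Gm44186 (5.90 CPM, low), the WT Firre library of 120 min near Vdac1 (2.37 CPM, low), and the WT control libraries of 60 min near Gm25495 (4.28 CPM, high), of 0 min near Plekhb2 (6.66 CPM, high) and of 120 min near Gm15516 (4.34 CPM, high).

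The difference between transgenic and control line was unlike in the KO and WT backgrounds by edgeR's interaction test in 12 named intervals. With 1 line per genotype, an effect of the transgene cannot be told apart from the history of a line. WT control cells stood alone near Gm18508 and at the pair near Gm7986, and KO control cells near Fzd2. A negative log2 difference means a lower log2 fold change in the KO background. They were -6.92 near Gm18508, -2.78 near n-TSaga9, -2.11 near Gm41031, -1.38 near Zfp42 (edgeR adjusted p = 0.000971), -1.10 near Gm25495, -1.01 near Vdac1, -0.96 near Rpl21-ps6 (edgeR adjusted p = 6.56e-06), -0.91 near 9030404E10Rik and -0.81 near Fzd2. The pair near Gm7986 had -0.85 upstream and 1.76 downstream, and the interval near Bhlhe40 had 1.67 (edgeR adjusted p = 0.0036). The value near Gm18508 is a fitted value against a line with 0 counts and is no measure of size. The Fzd2 call, at an edgeR adjusted p of 0.0495, ended in 23 of 32 alternatives. The other calls ended in 12 of 32 near 9030404E10Rik, 9 of 32 near Vdac1, 2 of 32 near Gm25495, 2 of 31 near Gm41031, 1 of 31 near Bhlhe40, and in none of those run near the others.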

How the results depend on the processing

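Called intervals numbered 2034, 357, 32 and 98 for KO control against WT control, KO Firre against KO control, WT Firre against WT control and the difference between transgene effects. In that order they were 851, 41, 10 and 9 with DESeq2, and 431, 182, 39 and 55 without the KO control libraries of 30 and 90 min. With the promoter share as covariate they were 9, 523, 16 and 36, with loess offsets 1488, 582, 48 and 177, and without the 0 min libraries 1373, 204, 19 and 29. limma-voom gave 1869, 226, 22 and 56, the minimum count of 30 gave 2018, 427, 35 and 150 of 18145 intervals tested, and total-count scaling gave 2515, 376, 32 and 127. With no filter they were 1995, 300, 33 and 89, and with no time term 1952, 310, 34 and 92. Leaving out each library in turn gave 1014 to 3458, 157 to 429, 17 to 49 and 44 to 268. KO control against WT control had 1270, 1014, 1178 and 3458 without KO control 30, 90, 120 and 150 min and 1126 without WT control 90 min. KO Firre against KO control had 174, 229, 233, 160 and 157 without KO Firre 30, 60, 90, 120 and 150 min, and 227, 198 and 194 without KO control 0, 30 and 120 min. WT Firre against WT control had 20, 20, 17 and 49 without WT Firre 0 or 150 min, WT control 150 min and KO control 150 min. The cause was not tested. Tests over time stayed at 0, except that the joint test called 1 without KO control 30 and 90 min, and 1 in the fits without WT control 90 or 150 min (0 to 1 over libraries). The share higher among the calls of KO control against WT control was 56.8% with TMM, 80.4% with DESeq2 and 22.0% with total counts. Of 3568 repeats of the 111 named calls, 3024 kept the call, 540 ended it and 4 turned the direction of KO control against WT control: Ier2 (-0.0413), Socs3 downstream (-0.038) and Gm33682 (-0.0742) in the fit with the promoter share, and Mir17hg (-0.00381) with loess offsets. The share of counts in the intervals was 20.3% in KO Firre, 20.2% in KO control, 20.6% in WT Firre and 21.1% in WT control cells when only autosomal peaks under 3000 bp were counted. Without each library in turn it ranged from 18.1 to 18.2% in KO Firre, 17.97 to 18.07% in KO control, 18.3 to 18.7% in WT Firre and 18.95 to 19.03% in WT control cells. Replicate numbers stand for times, and time is a term of the fit, so the counts with no time term above are those with no replicate block. Lines rest on 1 library per time, and the narrowest intervals on few counts, which limits the size of difference that could be called.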
